A study of Mus musculus with 12 samples.

Results

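The effect of losing Bnip3 from macrophages was examined in gonadal white adipose tissue of mice on normal chow. The comparison was set by the genotype and diet labels: 3 libraries of knockout mice on normal chow (MKO NCD) against 3 libraries of wild-type mice on normal chow (WT NCD), which are 6 of the 12 libraries in the series. MKO mice lack Bnip3 in macrophages, and WT mice are their controls. The other 6 libraries are from MKO and WT mice on a high-fat diet (MKO HFD and WT HFD, 3 each), and they are used here to set the values on chow beside an independent pair of groups. All mice entered their diet at the age of 8 weeks and stayed on it for 12 weeks. The replicates are called biological, but neither the driver of the macrophage deletion nor the sex, the strain background or the number of animals behind a library is given in the sources used here. Each library is of whole tissue, and in whole tissue fewer cells of a type and less RNA per cell cannot be told apart.

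Bnip3 sits in the outer membrane of mitochondria, where it binds LC3 on forming autophagosomes and so marks the organelle for removal, a process called mitophagy. It is a target of hypoxia signalling and is made in many cell types, adipocytes among them. In fat, resident macrophages clear dead cells and lipid, and adipocytes make fatty acids from glucose: mitochondrial citrate is exported and split to acetyl-CoA by Acly, carboxylated by Acaca and built into palmitate by Fasn with NADPH as the reductant. The transcription factors Srebf1 and Mlxipl (ChREBP) drive these genes, the first under insulin and the second under glucose.

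Library totals were 52.9 to 72.7 M counts over 12 libraries, and levels are given as CPM, the count scaled to the library total with TMM factors. Libraries of both NCD groups stood apart in ways that the genotype label does not name. A set of 118 genes was at 1 CPM or more in each WT NCD library and at 0.2 CPM or less in each HFD library. It is called here the genes carried from the epididymis because it holds epididymal secretory genes, though it also holds others. Their summed level was 31.5, 14.4 and 13.5 CPM in MKO NCD, against 21009, 15548 and 8571 CPM in WT NCD. The 6 HFD libraries had 1.20 to 3.93 CPM. Akr1b7, an enzyme of the vas deferens and adrenal, was 17268, 10712 and 20.1 CPM of the WT NCD sums. The listed epididymis markers summed to 6653, 8007 and 8854 CPM in WT NCD. Replicate 3, lowest for the carried genes, was thus highest for these markers. Smooth muscle genes summed to 337, 233 and 455 CPM in MKO NCD, against 13945, 1764 and 287 CPM in WT NCD, so that WT NCD replicate 3 lay within the MKO NCD range and replicate 1 far above it. MKO NCD replicate 2 had 57.3% of the 32238 genes at 0 counts, against 28.1% and 29.9% in the other MKO NCD libraries and 15.6% to 24.1% in WT NCD, at a total of 68.6 M counts. For this reason counts of genes are given from all 12 libraries and again without MKO NCD replicate 2, and the carried genes are described apart from the rest.

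**Figure D1:**
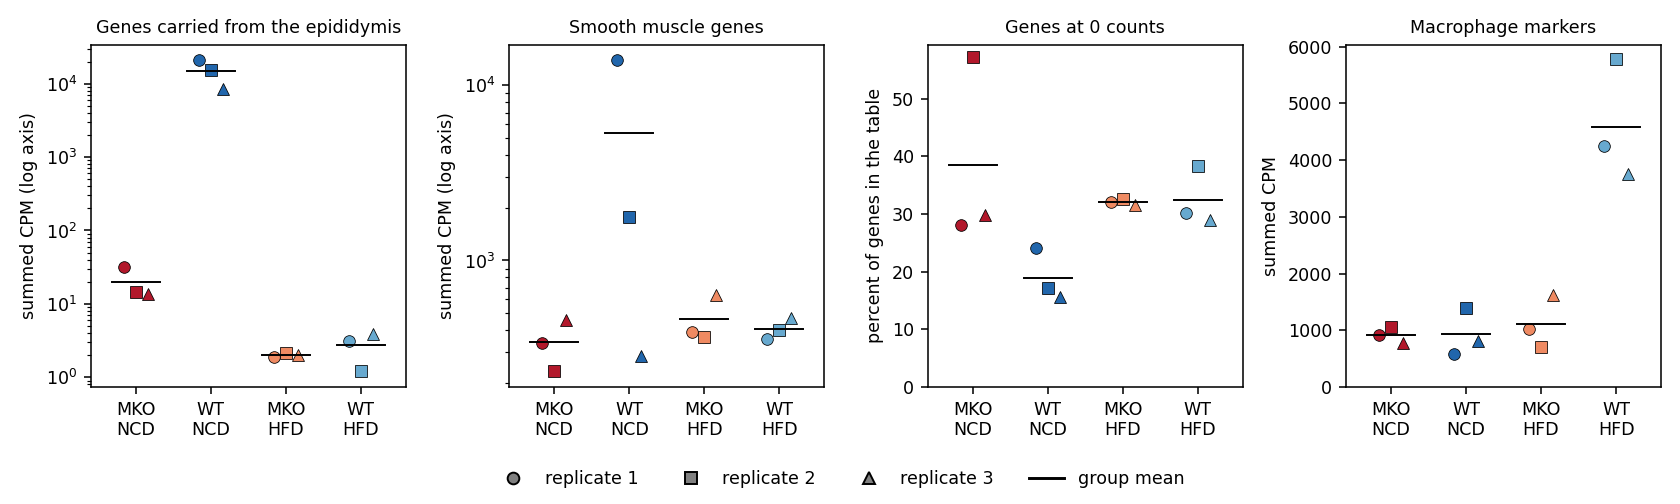
Summed CPM of genes carried from the epididymis and of smooth muscle genes (log axes), percent of genes at 0 counts, and summed CPM of macrophage markers, for each library (points, shape by replicate) and group (line, mean). The 3 WT NCD libraries had 8571 to 21009 CPM of carried genes against 13.5 to 31.5 CPM in MKO NCD, and MKO NCD replicate 2 had 57.3% of genes at 0. Akr1b7 alone made up 17268 CPM of the carried sum in WT NCD replicate 1 and 20.1 CPM in replicate 3.

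The deleted gene itself was not lower in the tissue. Bnip3, at chr7:138890836-138909506 (mm10), read 547, 811 and 563 CPM in MKO NCD and 392, 568 and 475 CPM in WT NCD. The lowest MKO NCD library lay under the highest WT NCD library, so the groups overlapped. The log2 fold change of MKO NCD over WT NCD was 0.42 with a standard error (SE) of 0.17 and adjusted p = 0.210, and without MKO NCD replicate 2 it was 0.22 (SE 0.15, adjusted p = 0.482). Adipocytes make the transcript too, so these whole-tissue counts do not check the genotype label. The authors' deposited table gives Bnip3 a signed fold of 1.278 with an adjusted p of 0.47.

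Of 20297 genes tested, 450 rose in MKO NCD against WT NCD (2.22% of those tested) and 432 fell (2.13%), together 882 (4.35%), at an adjusted p under 0.05 in edgeR's quasi-likelihood test. Leaving out MKO NCD replicate 2, 422 of 21595 genes rose (1.95%) and 606 fell (2.81%), together 1028 (4.76%). Both fits called 311 rises (1.53%) and 335 falls (1.65%), and 0 genes were called with opposite signs. With RLE in place of TMM size factors the split was 302 rises to 440 falls. The median log2 fold change over all genes tested was -0.14, and it was -0.20 with RLE, so values below are to be read against that shift. The 6 NCD libraries alone, which do not share the spread of the HFD libraries, gave 18 rises and 35 falls. Counts also turned on single libraries: rises and falls numbered 156 and 259 without WT NCD replicate 1, 331 and 241 without WT NCD replicate 2, 279 and 468 without WT NCD replicate 3, and 228 and 163 without MKO NCD replicate 3. The authors' deposited table has an adjusted p under 0.05 with a positive fold for 520 genes and with a negative fold for 1222 genes, of 22493 with a value.

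Genes of fatty acid synthesis rose together in MKO fat on chow. Of 18 lipogenesis genes tested, 15 rose and 0 fell, against 2.22% and 2.13% of all genes tested. The median log2 fold change was 1.44. The fit without MKO NCD replicate 2 had 13 rises and a median of 1.52, with Scd1 and Gpam no longer called. In 16 of the 18, all 3 MKO NCD libraries lay above all 3 WT NCD libraries, against 9.63% of all genes tested. Without WT NCD replicate 1, 9 of the 18 rose. The members' levels in each library are given next in the order of the pathway, from acetyl-CoA to triglyceride.

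Acly, which splits cytosolic citrate into acetyl-CoA and oxaloacetate, read 1618, 1341 and 2232 CPM in MKO NCD and 326, 267 and 502 CPM in WT NCD. The lowest MKO NCD library was above the highest WT NCD library by more than the range within WT, and the log2 fold change was 2.25 (SE 0.26, adjusted p = 0.00147). Acss2, which makes acetyl-CoA from acetate, read 326, 384 and 365 CPM in MKO NCD and 83.8, 52.3 and 72.1 CPM in WT NCD. It had a log2 fold change of 2.37 (SE 0.19, adjusted p = 2.90e-04), a 5.17-fold ratio of means. Acaca, the carboxylase that commits acetyl-CoA to fatty acid synthesis, read 1645, 1809 and 1535 CPM in MKO NCD and 479, 474 and 529.7 CPM in WT NCD. Libraries of each group lay close together, and the log2 fold change was 1.75 (SE 0.18, adjusted p = 9.67e-04). Acacb, whose product limits fatty acid entry into mitochondria, read 259, 624 and 452 CPM in MKO NCD and 140.5, 207 and 120.0 CPM in WT NCD. It rose by 1.51 on the log2 scale (SE 0.31, adjusted p = 0.0244).

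Fasn, the fatty acid synthase, read 8394, 9987 and 11480.5 CPM in MKO NCD and 2204, 958 and 2143 CPM in WT NCD. All MKO NCD libraries were above every WT NCD library, and WT NCD replicate 2 was the lowest of the 6. The log2 fold change was 2.49 in both fits (SE 0.29, adjusted p = 0.00175 with all libraries and SE 0.33, adjusted p = 0.00367 without MKO NCD replicate 2). The authors' deposited table gives Fasn a signed fold of 5.352. Me1, the malic enzyme that supplies NADPH in the cytosol, read 1515, 1402 and 1626 CPM in MKO NCD and 365, 294 and 447 CPM in WT NCD. Its log2 fold change was 2.04 (SE 0.18, adjusted p = 4.28e-04), with no overlap between groups. Thrsp (Spot 14), a nuclear protein of lipogenic tissues, read 1100.4, 1452 and 1787 CPM in MKO NCD and 367, 639 and 438 CPM in WT NCD. The groups did not overlap and Thrsp rose by 1.59 (SE 0.33, adjusted p = 0.0244).

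Desaturases and an elongase of the newly made chain rose too. Scd1, the main stearoyl-CoA desaturase of fat, read 46417, 59993 and 44169 CPM in MKO NCD and 17429.9, 23999.6 and 27751 CPM in WT NCD. It was called with all libraries (log2 1.12, SE 0.26, adjusted p = 0.0370) and not without MKO NCD replicate 2 (adjusted p = 0.0823). Scd2, its paralog, read 1219.6, 904 and 995 CPM in MKO NCD and 485, 251 and 482 CPM in WT NCD, with a log2 fold change of 1.36 (SE 0.23, adjusted p = 0.00957). Elovl6, which extends palmitate to stearate, read 149, 61.4 and 139 CPM in MKO NCD and 41.6, 38.7 and 55.6 CPM in WT NCD. MKO NCD replicate 2 was the low library of its group, and the log2 fold change was 1.36 with it (SE 0.27, adjusted p = 0.0213) and 1.67 without it (SE 0.15, adjusted p = 0.00100).

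The enzymes that place fatty acids on glycerol moved the same way. Agpat2, an acyltransferase whose human gene is mutated in congenital lipodystrophy, read 746, 860.5 and 1032 CPM in MKO NCD and 241, 283 and 284 CPM in WT NCD. It rose by 1.71 (SE 0.19, adjusted p = 0.00146). Dgat2, which adds the last acyl chain of triglyceride, read 2977, 2597 and 2904 CPM in MKO NCD and 822, 1058 and 1058 CPM in WT NCD. Its groups did not overlap, and its log2 fold change was 1.53 (SE 0.16, adjusted p = 0.00123). Lpin1, a phosphatidate phosphatase, rose by 0.87 (SE 0.14, adjusted p = 0.00691).

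Of the 2 transcription factors on the list, Mlxipl rose and Srebf1 was not called. Mlxipl read 151, 130.0 and 204 CPM in MKO NCD and 89.7, 69.7 and 93.2 CPM in WT NCD, a log2 fold change of 0.94 (SE 0.22, adjusted p = 0.0396). Srebf1 read 364, 555 and 555 CPM in MKO NCD and 274, 368 and 249 CPM in WT NCD, and MKO NCD replicate 1 lay just under the highest WT NCD library. Its log2 fold change was 0.73 (SE 0.20, adjusted p = 0.0675). Leaving out single libraries ended the call of some members: without WT NCD replicate 1 the adjusted p was 0.0841 for Thrsp, 0.0841 for Acacb, 0.0801 for Elovl6, 0.0924 for Mlxipl and 0.109 for Scd1. When MKO NCD replicate 3 was left out it was 0.0747 for Thrsp, 0.0661 for Acacb, 0.0708 for Elovl6, 0.114 for Mlxipl and 0.0697 for Scd1. Without WT NCD replicate 2 it was 0.0716 for Elovl6, 0.114 for Mlxipl and 0.0791 for Scd1, and without WT NCD replicate 3 it was 0.0643 for Thrsp, 0.0659 for Acacb and 0.0609 for Mlxipl. Without MKO NCD replicate 1 it was 0.0588 for Elovl6, 0.0648 for Mlxipl and 0.0621 for Scd1. Acly, Acss2, Acaca, Fasn, Me1, Scd2, Agpat2, Dgat2 and Lpin1 stayed past the threshold whichever of the 6 NCD libraries was left out.

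**Figure D2:**
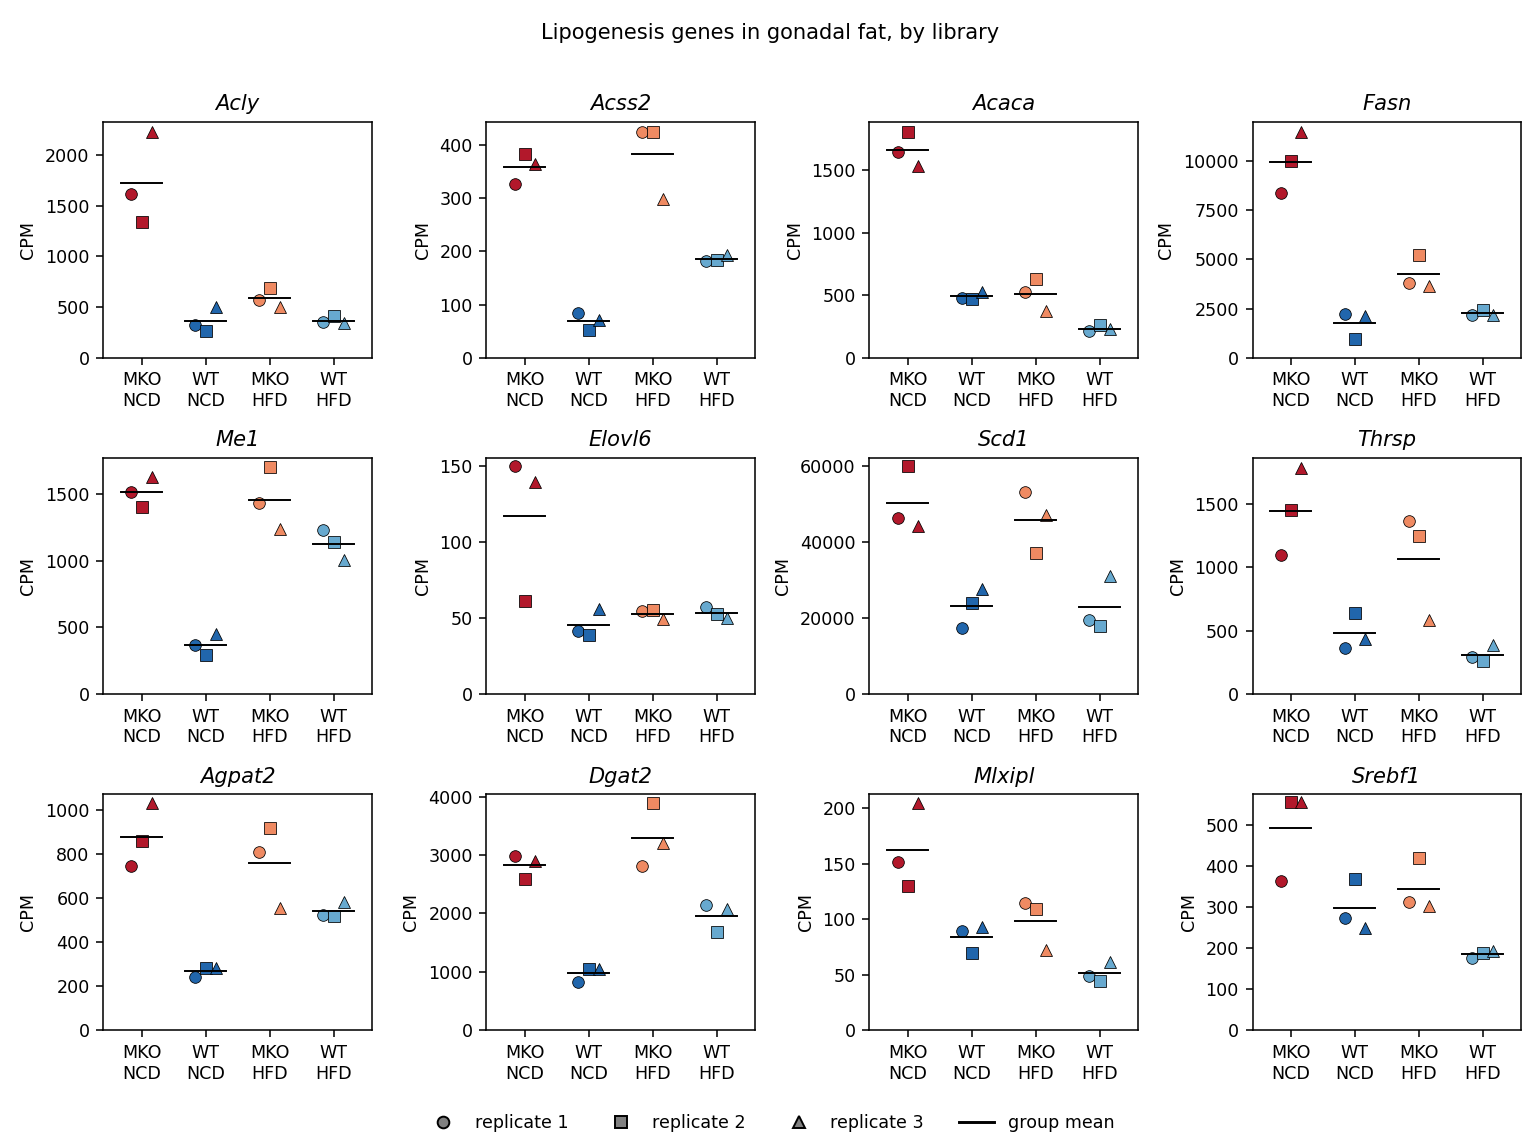
CPM of 12 lipogenesis genes in each library (points, shape by replicate) with the group mean (line), for MKO NCD, WT NCD, MKO HFD and WT HFD. Fasn lies at 8394 to 11480.5 CPM in MKO NCD against 958 to 2204 CPM in WT NCD, and Srebf1 is the panel whose NCD groups overlap.

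Since these genes moved together, the 250 bases before the start of 3 of them, as RefSeq's promoter table for GRCm38.p6 places it, are shown, 5′ to 3′ on the gene's strand. They are Fasn at chr11:120824548-120824797 (minus strand), Acss2 at chr2:155517793-155518042 (plus strand) and Thrsp at chr7:97417551-97417800 (minus strand). The Fasn window lies inside the whole annotated span of the gene (chr11:120805958-120825166), so the table takes a start within that span, while the Acss2 and Thrsp windows abut theirs. Capitals mark CCAAT, the letters read by the factor NF-Y, and its reverse complement ATTGG, both strands having been searched.
Fasn: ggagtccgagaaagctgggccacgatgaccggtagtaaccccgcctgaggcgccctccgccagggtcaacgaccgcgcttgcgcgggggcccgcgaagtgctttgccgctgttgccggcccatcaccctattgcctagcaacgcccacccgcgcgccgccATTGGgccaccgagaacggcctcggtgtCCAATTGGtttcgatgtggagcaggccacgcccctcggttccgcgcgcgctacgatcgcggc
Acss2: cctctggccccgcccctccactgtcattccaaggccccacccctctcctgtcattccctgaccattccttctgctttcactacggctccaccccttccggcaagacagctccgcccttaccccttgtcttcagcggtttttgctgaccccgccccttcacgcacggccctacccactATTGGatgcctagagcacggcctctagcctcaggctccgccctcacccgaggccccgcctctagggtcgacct
Thrsp: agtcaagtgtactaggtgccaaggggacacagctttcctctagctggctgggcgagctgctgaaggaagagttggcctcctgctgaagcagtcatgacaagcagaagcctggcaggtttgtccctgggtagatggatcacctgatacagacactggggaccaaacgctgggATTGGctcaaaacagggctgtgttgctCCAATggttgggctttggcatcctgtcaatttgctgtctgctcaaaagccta
The Fasn window holds 3 matches, of which a CCAAT and an ATTGG overlap, the Acss2 window holds 1 and the Thrsp window holds 2. A CCAAT on either strand was in 37.5% of the 250-base windows of 27025 genes and in 7 of the 12 lipogenesis genes that rose and have a window in the table. The E-box CACGTG, which ChREBP and other helix-loop-helix factors read, was in 6.86% of all windows and in 1 of those 12. These matches describe the letters of the windows and say nothing of binding.

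Many genes that supply citrate and NADPH to fatty acid synthesis, or glycerol to triglyceride, rose as well, as did some of cholesterol synthesis. The 4 lists used for them were drawn up after the values had been seen, so their counts are a description. Some members are on the lipogenesis list too and are counted in both. These include Me1 for NADPH and Agpat2 and Dgat2 for triglyceride. The share to set beside each list is 2.22% rising and 2.13% falling over all genes tested. Of 15 genes of pyruvate entry and citrate export, 12 rose and 0 fell, with a median log2 fold change of 0.75. Of the 15, 10 rose without MKO NCD replicate 2 and 6 without WT NCD replicate 1. Slc25a1, the mitochondrial citrate carrier, read 439.6, 527 and 646 CPM in MKO NCD and 213, 189 and 165 CPM in WT NCD. It rose by 1.51 (SE 0.15, adjusted p = 9.67e-04), and Pcx, which makes oxaloacetate from pyruvate, rose by 1.24 (SE 0.19, adjusted p = 0.00564). Subunits of the pyruvate dehydrogenase complex rose by less, with log2 fold changes of 0.72 for Pdha1, 1.04 for Pdhb and 0.74 for Dlat. Cs, the citrate synthase, rose by 0.77 (SE 0.12, adjusted p = 0.00607).

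Of 14 genes of NADPH supply, 8 rose and 1 fell (7 and 1 without MKO NCD replicate 2). Tkt, the transketolase of the pentose phosphate pathway, read 1178, 1036 and 1585 CPM in MKO NCD and 474, 429 and 426 CPM in WT NCD, and rose by 1.51 (SE 0.16, adjusted p = 0.00123). Pgd, which yields NADPH in the same pathway, rose by 1.12 (SE 0.12, adjusted p = 0.00123), and Idh1, the cytosolic isocitrate dehydrogenase, by 0.59 (SE 0.10, adjusted p = 0.0120). Nnt, the mitochondrial transhydrogenase, read 64.3, 51.7 and 47.2 CPM in MKO NCD and 23.1, 23.2 and 24.2 CPM in WT NCD. It rose by 1.21 (SE 0.14, adjusted p = 0.00146), and it was also called on high-fat diet (log2 0.86, SE 0.14, adjusted p = 0.0120). The member that fell was Mthfd1l, a mitochondrial folate enzyme, which is described with the falls.

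Of 15 genes of glycerol and triglyceride supply, 8 rose and 1 fell, in both fits, with a median of 0.87. Gpd1, which makes glycerol 3-phosphate from a glycolytic intermediate, read 1173, 1063 and 1428 CPM in MKO NCD and 359.9, 539.9 and 459 CPM in WT NCD. It rose by 1.43 (SE 0.19, adjusted p = 0.00271). Gpd2, the mitochondrial enzyme of the same shuttle, rose by 0.99 (SE 0.16, adjusted p = 0.00691). Pnpla3, a lipid droplet acylhydrolase induced with lipogenesis, read 796, 649.9 and 1251 CPM in MKO NCD and 278, 215 and 329 CPM in WT NCD, and rose by 1.71 (SE 0.30, adjusted p = 0.0113). The member that fell was Gk, which phosphorylates free glycerol. Gk read 24.9, 16.2 and 10.5 CPM in MKO NCD and 44.9, 60.2 and 72.6 CPM in WT NCD, a log2 fold change of -1.78 (SE 0.32, adjusted p = 0.0120).

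Of 21 genes of cholesterol synthesis, 8 rose and 1 fell, with a median of 0.68, and 10 rose and 1 fell without MKO NCD replicate 2. Insig1, which holds the sterol-sensing complex in the endoplasmic reticulum and is itself an SREBP target, read 236, 265 and 299.8 CPM in MKO NCD and 66.3, 103 and 125 CPM in WT NCD. It rose by 1.44 (SE 0.21, adjusted p = 0.00484). Later enzymes of the pathway rose by 1.32 for Pmvk, 0.82 for Idi1, 1.03 for Lss, 0.81 for Cyp51 and 1.28 for Dhcr7, all on the log2 scale.

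Glycolysis genes rose in part. Of 21 genes of glycolysis and the hypoxia response, 7 rose and 1 fell, against 2.22% and 2.13% of all genes tested. The median was 0.38. Without MKO NCD replicate 2, 7 rose and 2 fell, and 4 rose both without WT NCD replicate 1 and without MKO NCD replicate 3. Aldoa, an aldolase, rose by 0.90 (SE 0.11, adjusted p = 0.00220), Pfkp and Pfkl, phosphofructokinases, by 1.01 (SE 0.14, adjusted p = 0.00391) and 0.64 (SE 0.09, adjusted p = 0.00414), and Ldha, which makes lactate, by 0.73 (SE 0.11, adjusted p = 0.00629). Hk1, a hexokinase of many non-insulin-responsive cells, read 33.7, 27.6 and 33.2 CPM in MKO NCD and 64.99, 43.6 and 68.3 CPM in WT NCD. It fell by 0.90 (SE 0.17, adjusted p = 0.0156), and without WT NCD replicate 1 its adjusted p was 0.0567.

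Some genes that mark the adipocyte itself rose as well. Of 16 adipocyte identity genes, 3 rose (against 2.22% of all genes tested) and 0 fell, with a median of 0.60. In 10 of the 16 all MKO NCD libraries lay above all WT NCD libraries, against 9.63% of all genes tested. The 3 were Lep, Plin1 and Plin4. Without MKO NCD replicate 2, 1 rose (Plin4), as 1 did without MKO NCD replicate 3, and without WT NCD replicate 1 none passed. Summed, these genes were at 36586, 46893 and 42496 CPM in MKO NCD and 24556, 42251 and 26903 CPM in WT NCD. WT NCD replicate 2 lay within the MKO NCD range for adipocyte genes. Summed lipogenesis genes were at 68309, 83743 and 70985 CPM in MKO NCD and 24189, 30057 and 35176 CPM in WT NCD. Most of that sum was Scd1 in every NCD library, with 46417 CPM in MKO NCD replicate 1 and 23999.6 CPM in WT NCD replicate 2. Scd1 was not called without MKO NCD replicate 2. The part of adipocyte content in the lipogenesis rises was not tested. Adipoq, the adiponectin gene, read 2988, 3474 and 3594 CPM in MKO NCD and 1734, 3784 and 2269 CPM in WT NCD, with a log2 fold change of 0.37 (SE 0.26, adjusted p = 0.501). Pparg, the master regulator of adipocytes, had a log2 fold change of 0.60 (SE 0.18, adjusted p = 0.0881).

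Plin4, a lipid droplet coat protein, read 5504, 5000.4 and 5662 CPM in MKO NCD and 3079, 3588 and 3532 CPM in WT NCD, and rose by 0.66 (SE 0.12, adjusted p = 0.0148), with an adjusted p of 0.0566 without WT NCD replicate 1 and 0.0558 without MKO NCD replicate 3. Lep, the leptin gene, read 1962, 2490.4 and 1009.5 CPM in MKO NCD and 512, 728 and 992 CPM in WT NCD. The lowest MKO NCD library was close to the highest WT NCD library, and the log2 fold change of 1.29 (SE 0.32, adjusted p = 0.0489) had an adjusted p of 0.112 without MKO NCD replicate 2, 0.0986 without MKO NCD replicate 1, 0.141 without WT NCD replicate 1 and 0.117 without WT NCD replicate 2. Ptger3, a receptor for prostaglandin E2 that restrains lipolysis in adipocytes, was among the largest rises. It read 64.3, 80.3 and 78.7 CPM in MKO NCD and 16.5, 20.02 and 19.1 CPM in WT NCD, a log2 fold change of 2.01 (SE 0.19, adjusted p = 7.29e-04). Paqr9, a membrane protein of the progestin and adiponectin receptor family, rose by 1.75 (SE 0.21, adjusted p = 0.00211), and Slc36a2, an amino acid transporter enriched in adipocytes, by 1.35 (SE 0.13, adjusted p = 7.80e-04). Ncan, a proteoglycan gene at a low level, read 5.77, 4.49 and 3.70 CPM in MKO NCD and 0.762, 0.729 and 1.99 CPM in WT NCD, and rose by 2.01 (SE 0.35, adjusted p = 0.0117).

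Of 14 insulin signalling genes, 3 rose in both fits (1.53% of all genes tested did), Foxo1 and Pik3cb among them. The median over the list was 0.36. None passed without WT NCD replicate 1, and 1 did without MKO NCD replicate 3. Slc2a4, the insulin-regulated glucose transporter, read 230.0, 284 and 274 CPM in MKO NCD and 184, 185 and 148 CPM in WT NCD. Its groups did not overlap, but its log2 fold change of 0.61 was not called (SE 0.20, adjusted p = 0.111).

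**Figure D3:**
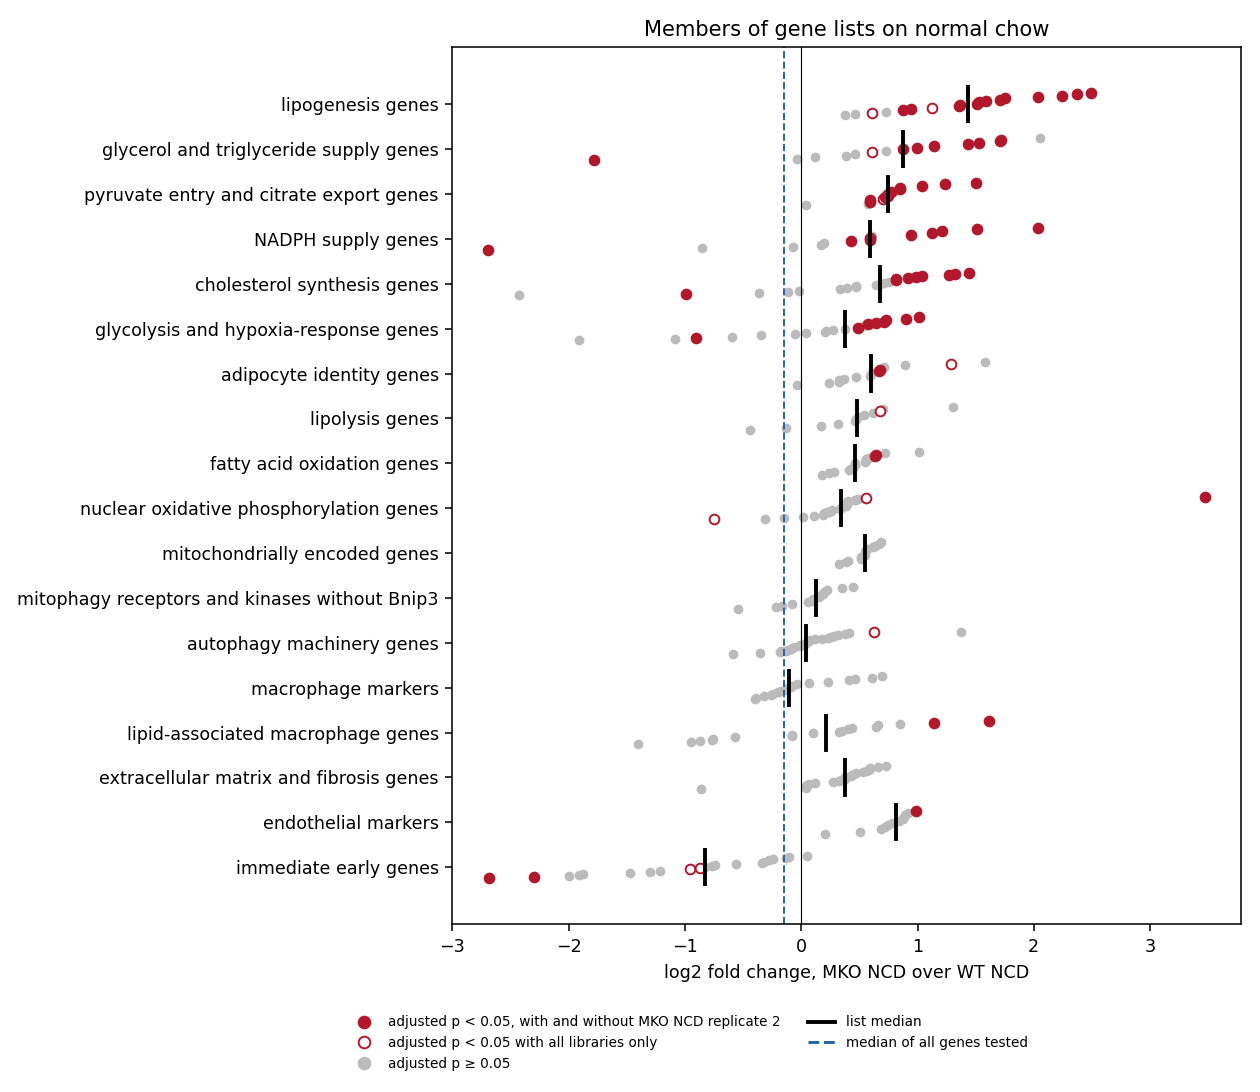
Log2 fold change of MKO NCD over WT NCD for each tested member (points) of 18 gene lists, with the list median (black bar) and the median of all genes tested (dashed line). Lipogenesis has 15 of 18 members called with a median of 1.44, while macrophage markers and mitophagy genes have none called.

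Genes of mitochondrial turnover, where Bnip3 acts, showed little change in whole tissue. Of 14 mitophagy receptors and kinases other than Bnip3, edgeR called 0 (1 at an unadjusted p under 0.05), and DESeq2 called 1. In the fit without MKO NCD replicate 2, edgeR called Optn, an autophagy receptor, which read 69.4, 39.1 and 62.9 CPM in MKO NCD and 46.1, 46.04 and 42.5 CPM in WT NCD. Of 27 autophagy machinery genes, 1 rose (2.22% of all genes tested did), Atg7, which activates LC3 conjugation. Its log2 fold change was 0.63 (SE 0.15, adjusted p = 0.0434), and its adjusted p lay between 0.0534 and 0.137 when any 1 of the 6 NCD libraries was left out. Among 42 lysosomal and mitochondrial fusion, fission and biogenesis genes, edgeR called 0, with 8 at an unadjusted p under 0.05 and 3 called by DESeq2.

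Genes of the respiratory chain lay mostly higher in MKO NCD but few passed the test. Of the 13 protein genes of mitochondrial DNA, 12 lay higher in all MKO NCD libraries than in any WT NCD library (9.63% of all genes tested did), and their median log2 fold change was 0.55. EdgeR called 0 of them (9 at an unadjusted p under 0.05), and DESeq2 called 3. Their summed level was 83853, 86937 and 111252 CPM in MKO NCD and 72686, 62841 and 65166 CPM in WT NCD. Of 27 nuclear oxidative phosphorylation genes, 2 rose (Sdha and Cyc1) and 1 fell (Atp5g1), against 2.22% and 2.13% of all genes tested. Their median was 0.34, and none passed without WT NCD replicate 1. Of 17 fatty acid oxidation genes, 2 rose, with a median of 0.47. That last count was 1 without MKO NCD replicate 2 and without WT NCD replicate 3, 0 without WT NCD replicate 1 or MKO NCD replicate 3, and 6 without WT NCD replicate 2.

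Macrophage genes, which mark the cell type that lost Bnip3, were not called in either direction. Of 18 macrophage markers, edgeR called 0 in both fits (2 at an unadjusted p under 0.05 with all libraries), and DESeq2 called 0. The median log2 fold change was -0.11, and -0.25 without MKO NCD replicate 2. Their summed level was 909, 1057 and 780 CPM in MKO NCD and 585, 1390 and 818 CPM in WT NCD. WT NCD held both the lowest and the highest of the 6 libraries. Lyz2, the lysozyme gene of myeloid cells, read 251, 283 and 231 CPM in MKO NCD and 147, 486 and 244 CPM in WT NCD. Its log2 fold change was -0.20 (SE 0.38, adjusted p = 0.813). Adgre1, which encodes F4/80, read 28.9, 54.5 and 20.7 CPM in MKO NCD and 15.9, 39.2 and 23.3 CPM in WT NCD, with a log2 fold change of 0.41 (SE 0.52, adjusted p = 0.715). Cd68 read 26.8, 51.02 and 18.9 CPM in MKO NCD and 13.7, 32.7 and 17.1 CPM in WT NCD. In each of the 3 genes replicate 2 was the highest library of both groups.

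On high-fat diet the same markers were lower in MKO fat. Of the 18, 13 fell in MKO HFD against WT HFD (454 of all genes fell there, 2.24%), with a median of -1.85. Their summed level was 1020, 703 and 1615 CPM in MKO HFD and 4243, 5780 and 3751 CPM in WT HFD. The difference between the diets was called for 0 of the 18 (53 of all genes, 0.261%), so the lack of a call on chow and the falls on high-fat diet are not shown to differ gene by gene.

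Of 18 lipid-associated macrophage genes, 2 rose on chow (2.22% of all genes tested did), Fabp5 and Plin2. Both are also made by adipocytes. Fabp5, a fatty acid binding protein, read 198, 187 and 234 CPM in MKO NCD and 55.6, 65.8 and 80.4 CPM in WT NCD, and rose by 1.62 (SE 0.21, adjusted p = 0.00236). Plin2, a droplet coat protein of many cell types, read 345, 332 and 389.5 CPM in MKO NCD and 128, 193 and 163 CPM in WT NCD, and rose by 1.14 (SE 0.21, adjusted p = 0.0150). Without WT NCD replicate 1 the adjusted p of Plin2 was 0.0543, and without MKO NCD replicate 3 it was 0.0531. Over 6 further lists (resident macrophage, interferon-stimulated, dendritic, T and NK, B and mast cell genes, 77 tested), edgeR called 0, with 5 at an unadjusted p under 0.05 and 4 called by DESeq2.

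Falls were called for 3 genes on the inflammatory cytokine and chemokine list and the monocyte and neutrophil list. Immune genes outside these lists fell too. Among them were the cytokine gene Csf3, one of the largest falls called in both fits, and Ptpn22, described below. Of 20 genes on the cytokine and chemokine list 1 fell (2.13% of all genes did), Ptgs2, the inducible cyclooxygenase. It read 0.949, 4.86 and 0.228 CPM in MKO NCD and 1575, 1322 and 3.81 CPM in WT NCD, so that WT NCD replicate 3 lay under the highest MKO NCD library. Its adjusted p of 0.0267 was 0.0511 to 0.0812 without WT NCD replicate 1 or 2 or without MKO NCD replicate 1 or 3. Of 9 monocyte and neutrophil genes tested, S100a9 and Plac8 fell. Plac8 read 1.99, 10.3 and 2.42 CPM in MKO NCD and 252, 169.7 and 43.5 CPM in WT NCD, and fell by 4.98 on the log2 scale (SE 0.85, adjusted p = 0.0107). S100a9 was at 0 counts in MKO NCD and at 0.0968 to 0.135 CPM in WT NCD, and its call was lost when any library other than MKO NCD replicate 2 was left out (adjusted p 0.0577 to 0.0901). Both Ptgs2 and Plac8 were low in all HFD libraries as well, at 0.388 to 2.16 CPM and at 1.05 to 10.5 CPM. Their WT NCD means were at least 4 times the level of every HFD library. In both genes WT NCD replicate 3 was the lowest library of its group. The part of the tissue carried with WT NCD in these falls was not tested.

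Many of the falls were of genes carried from the epididymis, which were close to 0 in every library outside WT NCD. Of the 118 carried genes, 51 fell and 0 rose (2.13% of all genes fell), and 49 fell in both fits. The genes were chosen for high WT NCD levels, so the direction of these calls was largely fixed by that choice and nothing is read from the count. Akr1b7, an aldose reductase-like enzyme of the vas deferens and adrenal, read 0.164, 0 and 0 CPM in MKO NCD and 17268, 10712 and 20.1 CPM in WT NCD, and its adjusted p of 0.0117 was 0.0556 without MKO NCD replicate 1 and 0.0544 without MKO NCD replicate 3. Defb42, an epididymal defensin, was at 0 counts in MKO NCD and read 273, 176 and 144 CPM in WT NCD, which was at least 11460-fold lower in MKO NCD when 3 counts are put in that group. Serpina1f, an epididymal serpin, read 0.365, 0 and 0 CPM in MKO NCD and 1381, 988 and 739 CPM in WT NCD. Of 16 epididymis markers tested, 8 fell (6 of 21 tested without MKO NCD replicate 2, 13 called without WT NCD replicate 1 and 4 or 5 without any other library). Summed, they were at 20.9, 0 and 2.80 CPM in MKO NCD and 6653, 8007 and 8854 CPM in WT NCD, with Crisp1, a sperm-coating protein, at 13.7, 0 and 1.02 CPM in MKO NCD and 4289, 4084 and 1828 CPM in WT NCD.

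Epithelial genes followed the same split. Of 20, 6 fell with all libraries (2.13% of all genes tested did). The count was 13 without MKO NCD replicate 2, 3 without WT NCD replicate 1 and 2 without MKO NCD replicate 3. Of the 20, 18 lay lower in every MKO NCD library than in any WT NCD library, against 15.6% of all genes tested. Their summed level was 69.4, 69.2 and 33.9 CPM in MKO NCD and 919, 682 and 684 CPM in WT NCD. Krt8, a keratin of simple epithelia, read 10.6, 4.98 and 3.82 CPM in MKO NCD and 118, 83.2 and 93.9 CPM in WT NCD, and fell by 3.93 (SE 0.60, adjusted p = 0.00629). Spint2, an epithelial protease inhibitor, fell by 3.53 (SE 0.44, adjusted p = 0.00220). Of 10 smooth muscle genes edgeR called 0 (9 at an unadjusted p under 0.05), and DESeq2 called 9. Myh11, their myosin heavy chain, read 76.3, 36.99 and 127 CPM in MKO NCD and 5851, 467 and 54.1 CPM in WT NCD.

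The endothelial, fibroblast and mesothelial lists had 1 or 2 members called each with all libraries, and 4.35% of all genes tested were called. Of 12 endothelial markers, with a median log2 fold change of 0.81 (1.07 without MKO NCD replicate 2), 1 rose, Cldn5, a tight junction protein, at 82.3, 65.6 and 95.5 CPM in MKO NCD and 44.6, 30.2 and 48.3 CPM in WT NCD (log2 0.98, SE 0.22, adjusted p = 0.0324). Cldn5 was called without MKO NCD replicate 2 and without WT NCD replicate 3 and not when any other NCD library was left out (adjusted p 0.0671 to 0.0985). Endothelial markers summed to 1303, 690 and 1620 CPM in MKO NCD and 901, 367 and 826 CPM in WT NCD, with replicate 2 lowest in both groups. Of 13 fibroblast and progenitor markers 1 rose, with a median of 0.07. Of 11 mesothelial markers 2 fell (against 2.13% of all genes tested), Krt8 and Krt19, which are also in the epithelial list. The mesothelial median was 0.16, and it was -1.39 with 3 falls without MKO NCD replicate 2. These markers summed to 80.0, 418 and 86.2 CPM in MKO NCD and 367, 484 and 315 CPM in WT NCD, so MKO NCD replicate 2 alone of its group lay within the WT NCD range. Of 21 matrix and fibrosis genes edgeR called 0 (6 at an unadjusted p under 0.05), DESeq2 called 3, and edgeR called 2 without MKO NCD replicate 2. Over the unfolded protein response, cell cycle, clock, ribosomal protein and thermogenic lists (92 genes) edgeR called 0, with 20 at an unadjusted p under 0.05 and 10 called by DESeq2.

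The falls outside the carried set were parted once more by the HFD libraries. Of 286 genes that fell in both fits and were not carried, 113 had a WT NCD mean at least 4 times the level of every HFD library of either genotype, against 5.72% of all genes tested, carried ones included. A high WT NCD level is also what makes a gene fall here, so this split is a description. The largest falls were of this kind. Gc, the vitamin D binding protein, was at 0 counts in MKO NCD and at 0.448, 21.2 and 30.3 CPM in WT NCD, and the HFD libraries had 0.106 to 0.525 CPM. Sult2b1, a sulfotransferase of epithelia, was at 0 counts in MKO NCD and at 6.76, 5.69 and 6.26 CPM in WT NCD, at least 362-fold lower in MKO NCD with 3 counts put there. Cited1, a transcriptional coregulator, was at 0.0243 ± 0.0421 CPM in MKO NCD and 52.9 ± 46.7 CPM in WT NCD (SD, n = 3 each), with 6.62 CPM in WT NCD replicate 3. Mfsd2a, a lipid transporter, read 0, 0 and 0.140 CPM in MKO NCD and 89.7, 86.4 and 2.55 CPM in WT NCD. In Cited1 and Mfsd2a WT NCD replicate 3 was far below its group, as it was for smooth muscle genes. The part of the carried, epithelial and smooth muscle levels in these falls was not tested.

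The other 173 falls had a median log2 fold change of -1.39. In 129 of them all 3 WT NCD libraries still lay above all 6 HFD libraries, as in 15.9% of all genes tested. The MKO NCD mean lay within the range of the HFD libraries for 83 of the 173 and under all of them for 66. The genes named next were picked from these after their values had been seen, by size of the fall.

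Gcnt1, a glycosyltransferase of mucin-type glycans, read 5.69, 6.37 and 3.92 CPM in MKO NCD and 48.6, 64.9 and 29.5 CPM in WT NCD. It fell by 3.16 (SE 0.36, adjusted p = 0.00146), and it fell on high-fat diet too, where it read 6.63, 4.86 and 7.64 CPM in MKO HFD and 33.1, 40.4 and 19.7 CPM in WT HFD (log2 -2.28, SE 0.35, adjusted p = 0.0109). Chrna2, a nicotinic receptor subunit found in thermogenic fat cells, read 4.60, 3.97 and 2.44 CPM in MKO NCD and 41.99, 20.3 and 33.4 CPM in WT NCD, and fell by 3.12 (SE 0.49, adjusted p = 0.00718). On high-fat diet it fell by 2.02 (SE 0.48, adjusted p = 0.0439). Basp1, a membrane protein of growing axons and other cells, read 3.23, 11.7 and 2.80 CPM in MKO NCD and 72.6, 50.95 and 40.9 CPM in WT NCD, and fell by 3.21 (SE 0.54, adjusted p = 0.0104). Its high MKO NCD library was replicate 2, without which the fall was 4.18.

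Coro2a, an actin-binding coronin, fell by 3.16 (SE 0.35, adjusted p = 0.00146), Adgrg6, an adhesion receptor, by 3.07 (SE 0.52, adjusted p = 0.0106), and Slc39a8, a zinc importer, by 2.83 (SE 0.47, adjusted p = 0.00998). In these 3, WT NCD replicate 3 was the lowest library of its group, with 62.5, 8.44 and 49.9 CPM, against 154, 50.2 and 200.3 CPM in WT NCD replicate 1. Mfap3l and the homeobox gene Hoxd3 fell by 2.91 (SE 0.33, adjusted p = 0.00146) and 2.70 (SE 0.45, adjusted p = 0.00987). Mthfd1l, the mitochondrial folate enzyme, read 3.21, 3.84 and 2.91 CPM in MKO NCD and 18.5, 20.7 and 25.2 CPM in WT NCD, and fell by 2.69 (SE 0.34, adjusted p = 0.00228). Shmt2, which passes one-carbon units from serine to folate in mitochondria, read 19.01, 6.82 and 16.2 CPM in MKO NCD and 101, 62.9 and 46.9 CPM in WT NCD, and fell by 2.33 (SE 0.35, adjusted p = 0.00628).

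Some immediate early genes, which respond fast and briefly to stimuli and stress, fell in MKO NCD. Of 21, 4 fell and 0 rose with all libraries (2.13% of all genes tested fell), with a median of -0.83, and 3 fell without MKO NCD replicate 2. Without WT NCD replicate 1 or MKO NCD replicate 3 none passed, and without WT NCD replicate 2 or MKO NCD replicate 1, 2 did. Nr4a1, an orphan nuclear receptor, read 6.48, 6.15 and 4.17 CPM in MKO NCD and 45.2, 17.96 and 19.8 CPM in WT NCD, and fell by 2.30 (SE 0.44, adjusted p = 0.0170). All WT NCD libraries also lay above all HFD libraries for Nr4a1, which had 5.33 to 14.5 CPM there. Egr2, a zinc finger factor, read 1.72, 3.53 and 1.56 CPM in MKO NCD and 19.9, 10.3 and 13.7 CPM in WT NCD, and fell by 2.69 (SE 0.57, adjusted p = 0.0269). Egr2 fell on high-fat diet too (log2 -2.63, SE 0.57, adjusted p = 0.0318). Fos, on the other hand, overlapped, at 9.60 ± 8.66 CPM in MKO NCD and 14.2 ± 2.77 CPM in WT NCD (SD, n = 3 each), with its highest library, 19.3 CPM, in MKO NCD. Of 13 heat shock genes, Hspa1a fell and Hspd1 rose (2.22% of all genes tested rose). Hspa1a, the inducible Hsp70, read 3.38, 3.11 and 4.45 CPM in MKO NCD and 35.96, 20.6 and 15.5 CPM in WT NCD (log2 -2.72, SE 0.38, adjusted p = 0.00410). Hspd1, a mitochondrial chaperonin, read 369, 369 and 368 CPM in MKO NCD and 233, 257 and 257 CPM in WT NCD (log2 0.57, SE 0.10, adjusted p = 0.0107). Hspa1a is nearly identical in sequence to its neighbour Hspa1b, so counts may be split between them.

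Some of the largest rises were set in size by MKO NCD replicate 2. Cyc1, a subunit of respiratory complex III, read 295, 3756 and 395 CPM in MKO NCD and 122, 141 and 137 CPM in WT NCD. Its log2 fold change was 3.48 with that library (SE 0.83, adjusted p = 0.0435) and 1.38 without it (SE 0.30, adjusted p = 0.0331). Smpd1, the acid sphingomyelinase of lysosomes, read 177, 1523 and 218 CPM in MKO NCD and 72.2, 81.8 and 105 CPM in WT NCD, and its log2 fold change was 2.89 with that library and 1.20 without it. Trp53inp2, an autophagy regulator, read 651, 2386 and 650.0 CPM in MKO NCD and 231, 316 and 334 CPM in WT NCD (2.06 with it and 1.15 without it). Chst12, a chondroitin sulfotransferase, read 78.8, 363 and 77.5 CPM in MKO NCD and 46.7, 36.03 and 41.9 CPM in WT NCD (2.06 and 0.91). The other MKO NCD libraries still lay above every WT NCD library in all 4. Leaving out a WT NCD library ended these calls, with adjusted p of 0.104 to 0.140 for Cyc1, 0.0906 to 0.146 for Smpd1, 0.0619 to 0.111 for Trp53inp2 and 0.102 to 0.122 for Chst12. In the other direction, 2707 genes were at 0 in MKO NCD replicate 2 while every other library had at least 10 counts. Of these 2707, 14 fell and 0 rose with all libraries, where 2.13% of all genes tested fell and 2.22% rose. Of the 14, 12 also fell without that library.

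The high-fat diet groups are other mice, and they give the direction of the same genotype difference in independent libraries. Of the 311 genes that rose on chow in both fits, 263 (84.6%) had a fold change above 0 on high-fat diet, where 48.4% of all tested genes did. Their median log2 fold change was 0.83 on chow and 0.32 on high-fat diet. Of the 311, 71 (22.8%) rose on high-fat diet too, where 271 of all genes rose (1.34%), and 1 fell. The difference between the diets was called for 12 of the 311 (53 of all genes, 0.261%). In 194 of the 311 all 3 WT NCD libraries lay below all 6 HFD libraries, as in 12.5% of all genes tested, and a low WT NCD level is part of what made these genes rise. The MKO NCD mean lay within the range of the HFD libraries for 142 and above all of them for 104. Of the 286 falls outside the carried set, 202 (70.6%) had a fold change below 0 on high-fat diet. Over all tested genes 48.4% were above 0 there. Of the 286, 20 (6.99%) fell there and 1 rose, where 2.24% of all genes fell and 1.34% rose. For the 173 that remained after the split above, 113 (65.3%) had a fold change below 0 and 18 (10.4%) fell, and the difference between the diets was called for 14. In all, 91 genes were called the same way on both diets, which is 15.2% of the genes called on chow in both fits outside the carried set and 12.6% of the 725 called on high-fat diet (3.57% of those tested).

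In the lipogenesis list 8 of 18 rose on high-fat diet (1.34% of all genes did), with a median of 0.76 against 1.44 on chow. Thrsp read 1365, 1249 and 587 CPM in MKO HFD and 292, 259.6 and 385 CPM in WT HFD, and rose by 1.77 (SE 0.33, adjusted p = 0.0195), close to its 1.59 on chow. Acss2 rose by 1.04 (SE 0.18, adjusted p = 0.0147), Acaca by 1.12 (SE 0.18, adjusted p = 0.0114) and Dgat2 by 0.75 (SE 0.16, adjusted p = 0.0316). Fasn read 3828, 5249 and 3655 CPM in MKO HFD and 2200.0, 2426 and 2152 CPM in WT HFD. Its groups did not overlap, but its log2 fold change of 0.91 was not called (SE 0.28, adjusted p = 0.118), and the difference between the diets was not called either (log2 -1.58, SE 0.39, adjusted p = 0.0979). Me1 was the list's member with a called difference, joined by Elovl6 without MKO NCD replicate 2 (log2 -1.68, SE 0.20, adjusted p = 0.0164). Me1 read 1435, 1699.7 and 1239.8 CPM in MKO HFD and 1229.7, 1138 and 1004 CPM in WT HFD, with a log2 fold change of 0.38, which was lower than on chow by 1.66 (SE 0.24, adjusted p = 0.0261).

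Paqr4 and Gbe1 were among the genes called on both diets. Paqr4, a membrane protein with a role in ceramide handling, read 77.95, 70.6 and 90.7 CPM in MKO NCD and 34.6, 36.8 and 26.6 CPM in WT NCD, and rose by 1.29 on chow (SE 0.16, adjusted p = 0.00220) and by 1.57 on high-fat diet (SE 0.16, adjusted p = 0.00446). Gbe1, the glycogen branching enzyme, read 144, 162 and 157 CPM in MKO NCD and 65.2, 68.2 and 71.6 CPM in WT NCD, and rose by 1.18 on chow (SE 0.11, adjusted p = 5.90e-04) and by 0.84 on high-fat diet (SE 0.11, adjusted p = 0.00945). Nnt rose by 0.86 (SE 0.14, adjusted p = 0.0120) and Plin4 by 0.92 (SE 0.12, adjusted p = 0.00945) on high-fat diet. Ptpn22, a phosphatase of lymphoid and myeloid cells, read 3.81, 4.64 and 2.19 CPM in MKO NCD and 9.54, 9.70 and 14.1 CPM in WT NCD, and fell by 1.65 on chow and by 2.32 on high-fat diet. Its adjusted p on chow was 0.0243, and 0.0614 without WT NCD replicate 3, 0.0568 without MKO NCD replicate 1 and 0.0699 without MKO NCD replicate 3.

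Of the 91 genes called the same way on both diets, 19 (20.9%) lie on chromosome 17, which holds 4.93% of the genes tested. Plin4, the adipocyte identity gene still called without MKO NCD replicate 2, is among the 19. Of 6 pseudogenes of Rps2 tested, a ribosomal protein gene of chromosome 17, 4 rose on both diets. Rps2-ps6 read 12.2, 14.2 and 17.2 CPM in MKO NCD and 3.11, 2.98 and 2.57 CPM in WT NCD, and rose by 2.33 on chow (SE 0.22, adjusted p = 6.30e-04) and by 2.48 on high-fat diet (SE 0.22, adjusted p = 0.00294). Rps2-ps8 and Rps2-ps13 rose by 2.64 (SE 0.41, adjusted p = 0.00630) and 2.03 (SE 0.26, adjusted p = 0.00228) on chow. These 3 pseudogenes lie on chromosomes 14, 17 and X and are near copies of Rps2, so their reads may come from any copy. Gm30783, a predicted gene at chr14:22921122-22932356, was at 4.07, 15.7 and 2.96 CPM in MKO NCD and at 0 counts in WT NCD, at least 519-fold higher in MKO NCD with 3 counts put in WT NCD, and at least 241-fold without MKO NCD replicate 2, which was the highest library. It was at 3.68, 3.28 and 6.81 CPM in MKO HFD and at 0 counts in WT HFD.

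**Figure D4:**
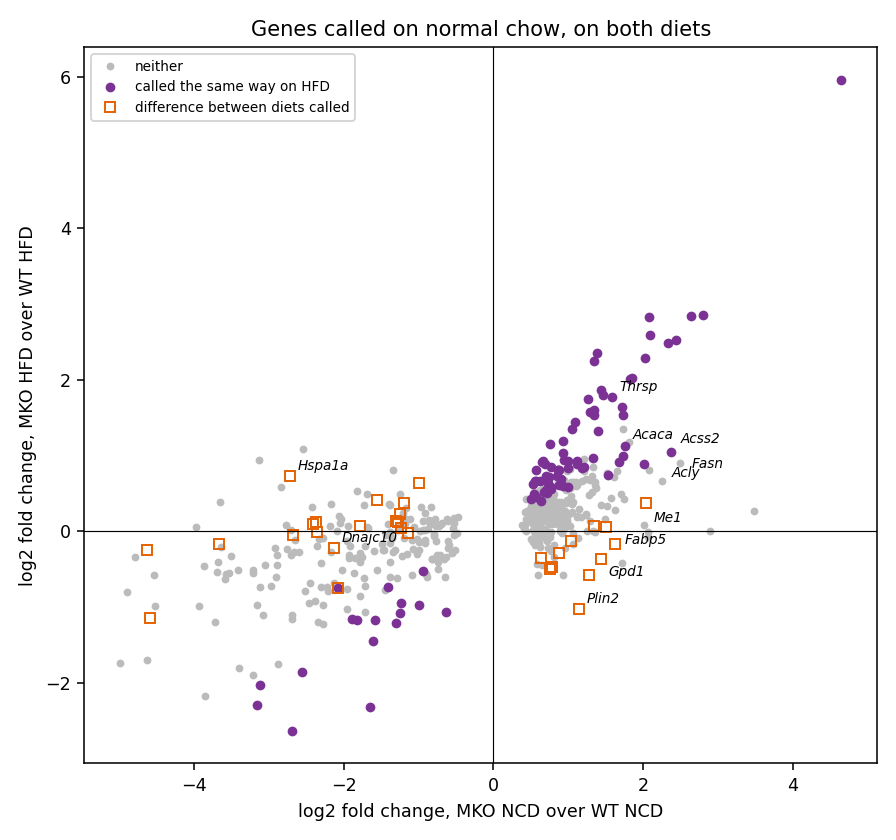
Log2 fold change of MKO over WT on normal chow (x axis) and on high-fat diet (y axis) for the 522 genes called on chow in both fits, outside the carried set, with a chow value within 5 log2 units. Purple points are called the same way on high-fat diet, and orange squares have a called difference between the diets; most points right of 0 lie above 0, and Plin2 and Hspa1a lie on the opposite side.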

How the data were processed

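RNA of gonadal white adipose tissue was sequenced in 12 mouse libraries, with a stranded poly(A) library kit per the labels. The submitters' processing notes name the mm10 build, the aligner HISAT2 2.1.0, StringTie 1.3.4d and DESeq2, with bcl2fastq 2.20.0 and Trimmomatic for the reads. Whether counting used strand is not given in the sources used here. The authors' deposited table holds a raw read count per gene and library, which is what was tested here. It also holds FPKM and TPM values from the authors, log2 normalized values and group means from the authors, and, per comparison, the authors' p-values and scores (signed fold, its error and test statistic). These other columns were read only for the folds and p-values credited to the authors' deposited table.

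Genes were tested with edgeR 4.0.16 (R 4.3.3) on the counts: TMM factors, filterByExpr by group, a robust quasi-likelihood fit of all 12 libraries by group, and Benjamini-Hochberg adjustment over all genes at 0.05, also beside every adjusted p in the text. Contrasts were MKO over WT on each diet and the difference of these. The same fit was run without MKO NCD replicate 2. DESeq2 1.42.0 and limma 3.58.1 (voom) were alternatives, and the statistics were tested on simulated data. Standard errors are the log2 fold change over the root of the F statistic. A floor of 3 counts over the group replaced groups at 0. P-values rest on a spread between libraries within groups, estimated per gene over all 12 libraries at 3 a group. The NCD values therefore also use the spread of the HFD libraries. Counting intervals were not needed at 52.9 to 72.7 M counts.

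The genes and lists were chosen with earlier results of these data known. Genes named are Bnip3, the 12 largest rises and 12 largest falls called in both fits at a mean of 1 CPM or more, the 5 largest falls carried from the epididymis, the 4 members of each list with the smallest p and up to 12 genes called on both diets. Not all of them are described, and further list members and falls were named after their values were seen, as were 4 of the 44 lists and the split of falls at 4 times every HFD library. Coordinates and sequences are from RefSeq for GRCm38.p6 (mm10), which matched 32161 of 32238 gene IDs. Some members of the lists are counted but not reported here by name.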

Additional observations from a re-analysis of the deposited data

Results flagged for a closer look

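For 12 of the genes named, the MKO effect differed between the diets by a test of that difference (edgeR's quasi-likelihood test, adjusted over all genes), and each was also called without MKO NCD replicate 2. The difference was called for 53 of all 20297 genes tested (0.261%). Most genes named were picked by their chow values, which the difference also uses. That choice favours a weaker effect on high-fat diet, so nothing is read from the count or its direction. Values are the log2 effect on high-fat diet minus that on chow, so a negative value means a higher MKO over WT ratio on chow. Among lipid synthesis genes the value was negative for Me1 (-1.66, adjusted p = 0.0261), the citrate carrier Slc25a1 (-1.45, adjusted p = 0.0272), Gpd1 (-1.79, adjusted p = 0.0261), lanosterol synthase Lss (-1.16, adjusted p = 0.0294) and Dhcr7 (-1.85, adjusted p = 0.0294). On high-fat diet itself the log2 effect was 0.38 for Me1 and 0.06 for Slc25a1. It was below 0 for Gpd1 (-0.36), Lss (-0.13) and Dhcr7 (-0.58), and it was called for none of these genes. In these 5 genes all 3 WT NCD libraries were lower than all 6 HFD libraries. Gpd1 read 359.9, 539.9 and 459 CPM in WT NCD, against 1126 to 1754 CPM on high-fat diet.

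Plin2 differed by -2.17 (adjusted p = 0.0261), and it was called in opposite directions, rising by 1.14 on chow and falling by 1.02 on high-fat diet, where it read 440.3, 486 and 626 CPM in MKO HFD and 1139, 1252 and 767 CPM in WT HFD. Fabp5 differed by -1.78 (adjusted p = 0.0368) and Slc36a2 by -1.27 (adjusted p = 0.0261).

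The falls with a called difference were Hspa1a (3.45, adjusted p = 0.0294), the T-box factor Tbx3 (2.35, adjusted p = 0.0323), the endoplasmic reticulum chaperone Dnajc10 (1.91, adjusted p = 0.0180) and the sphingosine phosphate phosphatase Sgpp1 (1.32, adjusted p = 0.0489). Dnajc10 read 68.7, 57.6 and 62.9 CPM in MKO NCD and 233, 239 and 352 CPM in WT NCD, against 57.6 to 81.7 CPM over the 6 HFD libraries. Tbx3 read 8.74, 6.49 and 9.95 CPM in MKO NCD and 59.1, 30.6 and 39.5 CPM in WT NCD, against 11.6 to 17.3 CPM over the HFD libraries. WT NCD lay above all HFD libraries in both genes, and MKO NCD lay below all of them in Tbx3. The part of the tissue carried with WT NCD in these differences was not tested.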

How the results depend on the processing

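Rises and falls on chow numbered 450 and 432. They were 18 and 35 with only the 6 NCD libraries, 9 and 68 with a test against a minimum fold of 2, and 244 and 238 with a replicate block. They were 858 and 1350 with DESeq2 and 1020 and 1560 with DESeq2 and MKO NCD replicate 2 left out, an alternative chosen after seeing the data. Voom with sample weights gave 940 falls. Leaving out each NCD library in turn gave 156 to 422 rises and 163 to 606 falls. Whether the replicate numbers pair the samples is not given. Same-numbered MKO and WT libraries had correlations of deviations of -0.00977, 0.162 and 0.0308, and not every library correlated best with its own number. So few correlations cannot exclude pairing. The 15 lipogenesis genes that rose became 5 with only the 6 NCD libraries, 5 with a minimum fold of 2, and 9 to 13 with a library left out.

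Over the genes in the text and their alternatives, 1721 repeats kept direction and side of the threshold, 276 lost the call in the same direction, 10 gained it and 4 changed sign. The 4 were of macrophage genes that were never called. Lyz2 ran from -0.52 to 0.38 with a library left out (0.38 without WT NCD replicate 2). Adgre1 ran from -0.071 (without MKO NCD replicate 2) to 0.83 and was -0.10 with voom and -0.080 with DESeq2 without that library. The cause was not tested.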
